A study of Homo sapiens with 6 samples.

Results

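The subject is the messages of 10 genes that make and use microRNAs, followed in H7 cells, an established human embryonic stem cell line, with and without knockdown of SAMD4A. The 10 genes were taken by symbol from the 60664 genes of the deposited count table, and all 10 were found and passed the low-count filter that left 17258 genes for testing. They are DROSHA and DGCR8, the 2 subunits of the nuclear Microprocessor, DICER1, the Argonaute genes AGO1 to AGO4, and TNRC6A, TNRC6B and TNRC6C. Poly-A messages were sequenced from 3 samples with the genotype control and 3 with SAMD4A knockdown, all grown on Matrigel in mTeSR Plus. The sources used here do not give the construct behind the knockdown, what the control cells carry or how many clones were used.

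MicroRNAs are cut from hairpins in long primary transcripts. In the nucleus DROSHA, the ribonuclease of the Microprocessor, and DGCR8, its RNA-binding partner, release the hairpin, and in the cytoplasm DICER1 trims it to the mature duplex. One strand is loaded into an Argonaute protein, which finds messages that match the seed of the microRNA, and TNRC6 proteins (also called GW182) bind Argonaute and bring in the deadenylases that repress the message. Human embryonic stem cells are known for microRNAs of the miR-302 family and for LIN28 proteins, which block the maturation of let-7. SAMD4A belongs to the Smaug family of RNA-binding repressors, and in Drosophila Smaug is known to recruit an Argonaute protein to a target message.

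Library totals ran from 19270688 to 21355171 counts, of which mitochondrial genes took 3.31% to 3.46% in control and 4.87% to 5.12% in knockdown. SAMD4A itself was at 52.2, 56.0 and 49.8 counts per 1e+06 (CPM, scaled by TMM factors) in control replicates 1 to 3 and 27.4, 28.5 and 28.5 CPM in the knockdown libraries (log2 fold change -0.90 ± 0.07 SE, edgeR adjusted p = 9.0e-08). The summed level of 6 stem cell markers (POU5F1, SOX2, NANOG, LIN28A, DPPA4 and TDGF1) was 5099 to 5220 CPM in control and 5156 to 5591 CPM in knockdown. LIN28A and POU5F1 made up most of it. POU5F1 and TDGF1 rose, and NANOG fell from 78.5 ± 2.93 to 66.1 ± 7.59 CPM (edgeR adjusted p = 0.011). Of 6 fibroblast markers 4 were tested (COL1A1, COL1A2, COL3A1 and THY1), and all 4 fell, where 25.6% of all tested genes did. Summed, they had 785 to 838 CPM across control libraries and 666 to 720 CPM after knockdown. THY1 made up most of that sum in every library. COL3A1 was low, with a control mean of 2.61 CPM. After knockdown, replicate 1 kept 1.54 CPM of COL3A1, while both others had 0.11 CPM or less. The defining markers DCN and LUM had at most 3 counts in any library. The library of knockdown replicate 1 differed more from its own group than the others did. Its counts differed from replicates 2 and 3 by 8.33 and 7.29 (chi-square over degrees of freedom), and theirs from each other by 3.23. The summed level of neuroectoderm markers was 62.8 to 70.6 CPM in control and reached from 14.6 to 99.7 CPM in knockdown, with replicate 1 the highest. DLK1 made up most of that sum in the control libraries and in knockdown replicate 1, and HESX1 in knockdown replicates 2 and 3. HESX1, the 1 marker of the 5 tested that passed, rose, and there replicate 1 was the lowest of its group, at 8.32 CPM against 12.9 CPM in both others. PAX6, SIX3, DLK1 and LHX2 did not pass and had log2 fold changes of -1.09, -1.08, -0.91 and -0.99. Each of these was highest in knockdown replicate 1, and PAX6, SIX3 and LHX2 were at 0.51 CPM or less in knockdown replicates 2 and 3. The part of either marker list, or of the mitochondrial share, in the results was not tested. Whether replicates were separate cultures is unknown, so a p-value speaks only of the spread among these 6 libraries, possibly a technical one.

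Of the 10 genes, 5 rose in knockdown (AGO1, DGCR8, TNRC6A, DROSHA and TNRC6B) and 2 fell (TNRC6C and AGO4), by the edgeR quasi-likelihood test with an adjusted p below 0.05. In the same 7 genes the 3 knockdown libraries lay entirely to 1 side of the 3 control libraries. DICER1, AGO2 and AGO3 did not pass. In all tested genes 51.7% passed, 26.1% higher and 25.6% lower, and the groups did not overlap in 58.3%, so the 10 genes passed at a rate not far from this wide background. Their median log2 fold change was 0.16, beside -0.01 in all tested genes. With scaling by total counts only, which moved the median of all genes to -0.17, 4 of the 10 were higher and 4 lower, and their median was 0.0019. In bulk libraries like these, fewer cells of a type and less RNA per cell cannot be told apart.

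**Figure D1:**
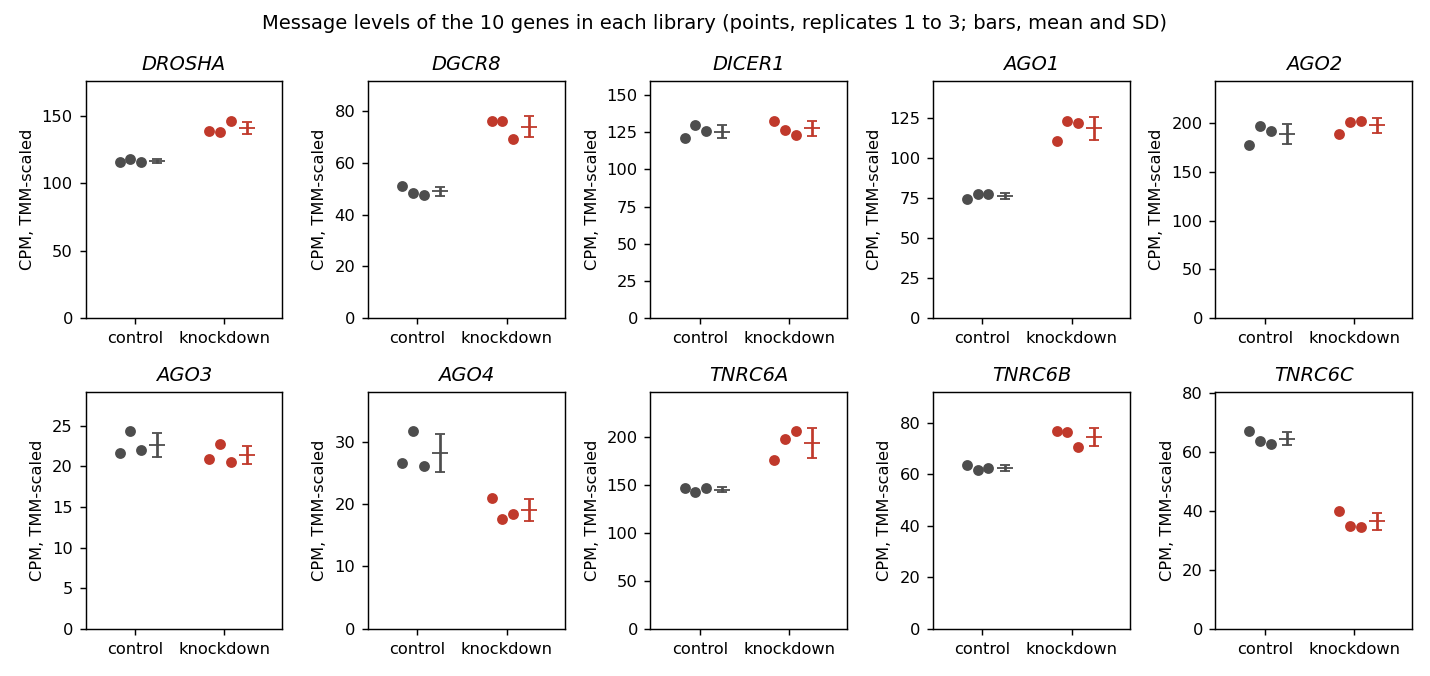
TMM-scaled CPM (vertical axes, from 0) of each of the 10 genes in the 3 control (grey) and 3 knockdown (red) libraries, with the mean and SD beside the points. The knockdown points of AGO1 lie at 110 to 123 CPM above control points at 74.3 to 77.7 CPM, those of TNRC6C at 34.8 to 39.99 CPM below control points at 62.7 to 67.1 CPM, and the points of DICER1, AGO2 and AGO3 overlap.

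Both subunits of the Microprocessor rose. DGCR8 (ENSG00000128191, chr22:20080232-20111877, GRCh38, plus strand) had 51.0, 48.3 and 47.8 CPM in the control samples and 76.1, 76.3 and 69.2 CPM after knockdown. Every knockdown library was above every control library. The log2 fold change was 0.59 ± 0.06 (SE; edgeR adjusted p = 1.6e-06), a rise of 1.51 fold. DROSHA (ENSG00000113360, chr5:31400494-31532196, minus strand) had 116, 118 and 116 CPM in the control samples and 139, 138 and 147 CPM after knockdown. These groups did not overlap either, and the log2 fold change was 0.28 ± 0.05 (edgeR adjusted p = 0.00020). With total counts only it was 0.12, close to the threshold (edgeR adjusted p = 0.049).

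Per kilobase of exon, DGCR8 counts were 0.506 ± 0.0201 of DROSHA counts in control and 0.631 ± 0.0544 in knockdown (mean ± SD over 3 libraries). The ratio was higher in 3 of 3 knockdown libraries than in any control library, with an exact two-sided permutation p of 0.10, the smallest that 3 against 3 can give. The ratio needs no scaling between libraries. It was 0.659 and 0.665 in knockdown replicates 1 and 2 and 0.568 in replicate 3, which was the closest to the control range of 0.492 to 0.529.

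The message of DGCR8 carries hairpins of its own, and the Microprocessor is known to cut them, which lowers that message. The mature microRNAs that RefSeq (GRCh38.p14) places inside DGCR8 on its strand are shown because they mark these hairpins, with the seed, bases 2 to 8, in capitals. The first lies at chr22:20085797-20085818, and the others at chr22:20086072-20086093 and chr22:20086112-20086129.
hsa-miR-3618: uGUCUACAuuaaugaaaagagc
hsa-miR-1306-5p: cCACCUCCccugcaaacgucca
hsa-miR-1306-3p: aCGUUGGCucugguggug
Their precursor genes had 0 counts in all 6 libraries. Libraries of poly-A messages do not sample mature microRNAs, so those counts say nothing about their levels.

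DICER1 (ENSG00000100697, chr14:95086228-95158010, minus strand) stayed within the spread of its replicates. It had 121, 130 and 126 CPM in the control samples and 133, 127 and 123 CPM after knockdown, and the groups overlapped. The log2 fold change was 0.02 ± 0.05 (edgeR adjusted p = 0.72). With total counts only it was -0.13 and passed the threshold (edgeR adjusted p = 0.036), so its direction depended on the scaling. DICER1-AS1, a long noncoding RNA that overlaps 366 bases of DICER1 on the other strand, had 5.91 ± 0.54 CPM in control and 2.41 ± 0.24 CPM in knockdown (log2 fold change -1.29 ± 0.19, edgeR adjusted p = 3.5e-05). The library kit keeps strand, per the labels, but whether the counting used it is not stated. The overlap is of gene spans, and shared exons were not examined. Reads in any shared exon could belong to either gene. DICER1-AS1 was chosen after its values were seen.

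The Argonaute genes split. AGO1 (ENSG00000092847, chr1:35869808-35930532, plus strand), whose protein binds microRNAs but is known as a poor slicer, had 74.3, 77.3 and 77.7 CPM in the control samples and 110, 123 and 122 CPM after knockdown. Its knockdown libraries were all far above control, and the log2 fold change was 0.63 ± 0.06 (edgeR adjusted p = 2.6e-07), a rise of 1.55 fold. AGO4 (ENSG00000134698, chr1:35808016-35857890, plus strand), which lacks slicer activity, had 26.6, 31.6 and 26.1 CPM in the control samples and 21.02, 17.6 and 18.4 CPM after knockdown. Each knockdown library was below each control library, and the log2 fold change was -0.56 ± 0.10 (edgeR adjusted p = 0.00025).

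AGO2, the main slicer of human cells (ENSG00000123908, chr8:140520156-140635633, minus strand), had 178, 197 and 193 CPM in the control samples and 189, 202 and 203 CPM after knockdown. The groups overlapped and the log2 fold change was 0.07 ± 0.05 (edgeR adjusted p = 0.31). AGO3 (ENSG00000126070, chr1:35930718-36072500, plus strand) had 21.6, 24.3 and 22.0 CPM in the control samples and 20.9, 22.7 and 20.6 CPM after knockdown. It did not pass either, at -0.08 ± 0.09 (edgeR adjusted p = 0.47). AGO2 passed at 0.14 with an offset for exon length (edgeR adjusted p = 0.023), and AGO3 at -0.24 with total counts only (edgeR adjusted p = 0.035).

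AGO4, AGO1 and AGO3 stand in that order on one strand of chromosome 1. A gap of 185 bases separates the annotated end of AGO1 from the start of AGO3, and 11917 bases separate AGO4 from AGO1. These neighbours had log2 fold changes of -0.56, 0.63 and -0.08, so the genes of the cluster did not move to 1 side. Reads that run from AGO1 into AGO3 were not examined.

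Weighted by exon length, AGO2 held most of the Argonaute messages. AGO1 took 23.7% ± 0.79 of the family in control and 33.3% ± 0.96 in knockdown, AGO2 55.0% ± 0.85 and 52.3% ± 0.43, AGO3 4.89% ± 0.13 and 4.20% ± 0.21, and AGO4 16.4% ± 1.18 and 10.1% ± 1.29 (mean ± SD over 3 libraries). In each of the 4 the groups did not overlap, and each exact two-sided permutation p was 0.10, the smallest possible. Since shares sum to a whole, a lower share can stand beside a level that did not pass the test, as for AGO2 and AGO3. The summed family level was 22.3 to 24.7 in control and 24.9 to 26.4 in knockdown, in CPM per kilobase of exon (exact permutation p = 0.10). AGO1 counts per kilobase were 1.45 ± 0.14 times those of AGO4 in control and 3.34 ± 0.49 times in knockdown.

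The TNRC6 genes split as well, with TNRC6A and TNRC6B higher and TNRC6C lower. TNRC6C (ENSG00000078687, chr17:77959240-78108835, plus strand) had 67.1, 64.0 and 62.7 CPM in the control samples and 39.99, 34.9 and 34.8 CPM after knockdown. The highest knockdown library was well below the lowest control library, and the log2 fold change was -0.82 ± 0.07 (edgeR adjusted p = 2.0e-07), to 0.566 of the control level. TMC6, which overlaps 1439 bases of TNRC6C on the other strand, was also lower, at -0.31 ± 0.06 (edgeR adjusted p = 0.00053). That overlap is of gene spans, and shared exons were not examined. Reads in any shared exon cannot be told apart if strand was not used, and their part in the fall of TNRC6C was not tested. TMC6 was chosen after its values were seen.

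TNRC6A (ENSG00000090905, chr16:24610209-24827632, plus strand) had 146, 142 and 146 CPM in the control samples and 176, 198 and 206 CPM after knockdown. Knockdown replicate 1 was the lowest of its group and still above every control library. The log2 fold change was 0.41 ± 0.06 (edgeR adjusted p = 2.2e-05). TNRC6B (ENSG00000100354, chr22:40044817-40335808, plus strand) had 63.6, 61.5 and 62.2 CPM in the control samples and 76.7, 76.5 and 70.4 CPM after knockdown. It rose by 0.25 ± 0.06 on the log2 scale (edgeR adjusted p = 0.0019). Scaling by totals alone took it below the threshold (0.10, edgeR adjusted p = 0.18).

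By counts per kilobase, TNRC6A made up 62.8% ± 0.63 of the TNRC6 family in control and 74.2% ± 2.67 in knockdown, while TNRC6C went from 24.7% ± 0.61 to 12.5% ± 1.61. Neither overlapped between the groups (exact two-sided permutation p = 0.10 each, the smallest possible). TNRC6B was at 12.6% ± 0.02 and 13.4% ± 1.15, and its groups overlapped (exact permutation p = 0.40). TNRC6A counts per kilobase were 2.55 ± 0.09 times those of TNRC6C in control and 6.04 ± 0.93 times in knockdown.

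**Figure D2:**
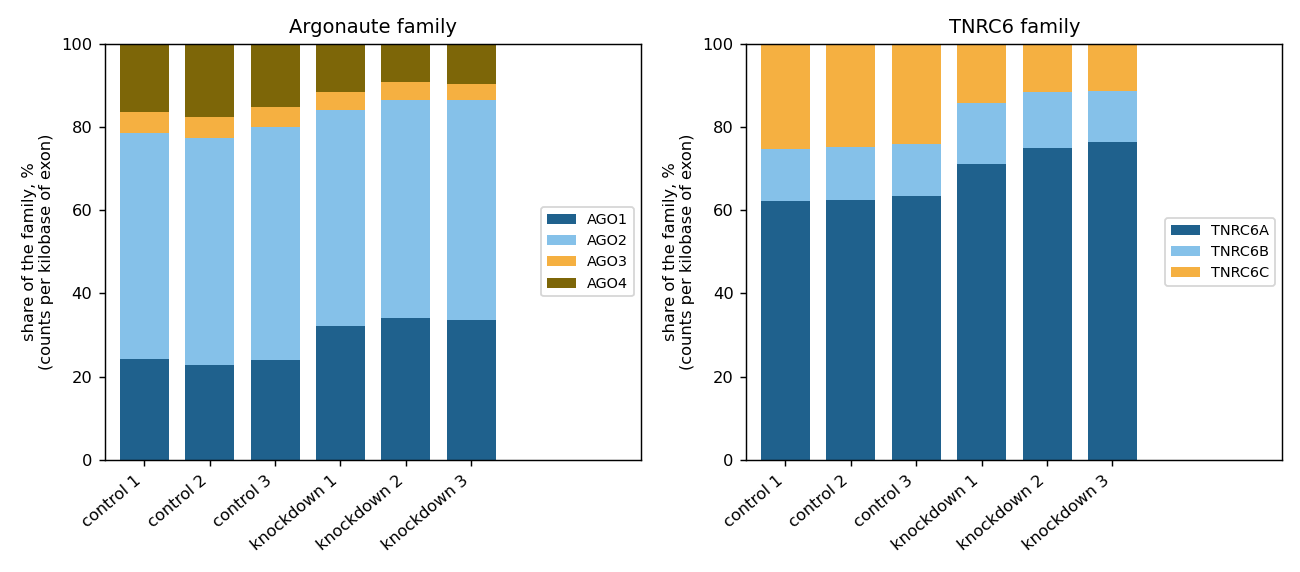
Share of each gene (stacked bars, percent of counts per kilobase of exon) in the Argonaute family on the left and the TNRC6 family on the right, for each library. AGO1 widens from 22.8% to 24.3% in control to 32.3% to 34.1% in knockdown, and TNRC6C narrows from 24.0% to 25.2% in control to 11.4% to 14.3% in knockdown.

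In the order of levels per kilobase of exon (CPM per kilobase, from the authors' exon lengths), DROSHA was the highest in both groups, at 21.5 ± 0.26 in control and 26.1 ± 0.87 in knockdown. TNRC6A came next, at 17.1 and 22.7, and AGO3 was the lowest, at 1.15 and 1.09. In control the order went on with AGO2 (12.96), DICER1 (12.1), DGCR8 (10.9), TNRC6C (6.71), AGO1 (5.57), AGO4 (3.87) and TNRC6B (3.42). AGO2 and DICER1 overlapped, and no other neighbours in that order did. In knockdown DGCR8 stood next after TNRC6A at 16.4, AGO1 was at 8.64 and TNRC6C was at 3.80, where it overlapped TNRC6B at 4.08. The exon lengths join the exons of all transcripts of a gene, so a gene with rare long forms is placed too low.

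**Figure D3:**
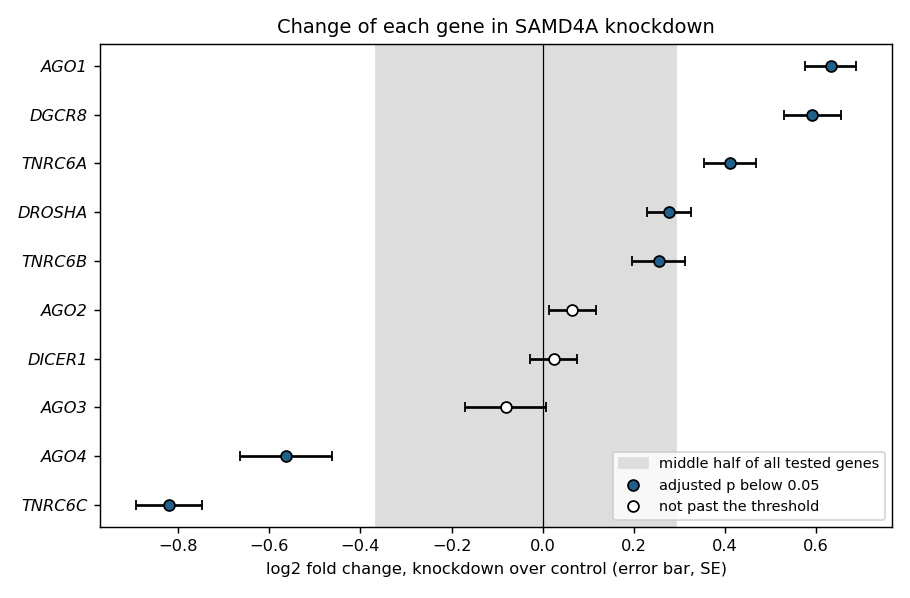
Log2 fold change of each gene (horizontal axis, knockdown over control, with SE from edgeR); filled points have an adjusted p below 0.05, and the grey band runs between the quartiles of all tested genes, from -0.37 to 0.29. AGO1, DGCR8 and TNRC6A lie above the band, AGO4 and TNRC6C below it, and the other 5 inside.

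TNRC6C had the smallest adjusted p of the 10 genes. Among 10334 other genes that averaged 10 CPM or more, those whose log2 CPM ran most like it over the 6 libraries were RGMB, FGD5, PIM1, BCL2L1 and ZNF777. Their Pearson r with TNRC6C was 0.999 or above, and their log2 fold changes were -0.65, -1.29, -1.18, -0.49 and -1.36. With 2 groups that differ, such an r mostly restates that gap, and it is a description of 6 libraries.

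The wider pathway was read from 6 lists with 75 partner genes, of which all 75 were tested. Of these 38 were higher and 16 lower, with a median log2 fold change of 0.15. The shares were 50.7% and 21.3%, beside 26.1% and 25.6% of all tested genes. With total counts only, 26 were higher and 24 lower and the median was -0.01, beside -0.17 in all genes under that scaling.

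Partners of the Microprocessor were nearly all higher: 15 of 16 rose and 1 fell, with a median of 0.41. That is 93.8% and 6.25%, beside 26.1% and 25.6% of all tested genes. SRRT (also called ARS2), which links the cap-binding complex to primary microRNAs, went from 137 ± 3.89 to 259 ± 4.81 CPM (log2 fold change 0.92 ± 0.05, edgeR adjusted p = 4.3e-10). SAFB2 rose by 0.82 and SAFB, its paralog, by 0.76, both nuclear RNA-binding scaffold factors. SRSF3, a splicing factor that aids the choice of the cut site, fell by 0.21. In the export and dicing list RAN, the GTPase of nuclear transport, rose by 0.44 and XPO5, the exporter of hairpins, by 0.21. TARBP2, a partner of DICER1, was at 0.07 ± 0.07 and did not pass.

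Of 10 genes listed under precursor tailing and decay, LIN28A, LIN28B and TRIM71 among them, 4 were higher and 3 lower. That is 40% and 30%, beside 26.1% and 25.6% of all tested genes. LIN28A did not pass, at 1859 ± 65.6 CPM in control and 1827 ± 64.7 CPM in knockdown (log2 fold change -0.02 ± 0.04, edgeR adjusted p = 0.65). LIN28B, its paralog, had 205, 223 and 227 CPM in the control samples and 152, 168 and 157 CPM after knockdown. Those groups did not overlap, and it fell by 0.46 on the log2 scale (SE 0.05, edgeR adjusted p = 4.3e-06). TENT2, an enzyme that adds tails to RNA, fell by 0.57 and TRIM71, a ubiquitin ligase and let-7 target, by 0.28. ZC3H12A, a ribonuclease that can cut precursors, rose by 0.75, the tailing enzyme TUT7 by 0.29 and TSN, a subunit of an RNA endonuclease, by 0.27.

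Of chaperones that load small RNA duplexes into Argonaute, 7 of 8 rose and 1 fell (87.5% and 12.5%, beside 26.1% and 25.6% of all tested genes). HSPA8 had the largest rise, a log2 fold change of 3.23 ± 0.04, followed by HSP90AA1 at 0.85 and FKBP4 at 0.85, while FKBP5 fell by 0.25. Among other Argonaute partners and turnover factors 6 of 19 rose and 6 fell (31.6% each), not far from the 26.1% and 25.6% of all tested genes. GEMIN4, found with Argonaute in SMN complexes, rose by 1.12 ± 0.06, ANKRD52, a subunit of the phosphatase that resets Argonaute, by 0.79 and ZSWIM8, a ubiquitin ligase adaptor of target-directed microRNA decay, by 0.46. AJUBA, a LIM protein reported with Argonaute, fell by 1.45 ± 0.08, P4HA1, a prolyl hydroxylase, by 0.60 and WTIP by 0.38.

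Of 17 effectors that act downstream of TNRC6, 4 were higher and 5 lower (23.5% and 29.4%), shares near those of all tested genes (26.1% and 25.6%). EIF4E2, a cap-binding repressor, rose by 1.04 ± 0.07 and its partner GIGYF2 by 0.42, and CNOT9, the CCR4-NOT subunit that binds TNRC6, by 0.35. DCP1A, a decapping cofactor, fell by 0.69 ± 0.08, the exonuclease XRN1 by 0.60 and the deadenylase PAN2 by 0.45. Of the PIWI genes, the germline relatives of Argonaute, PIWIL2 and PIWIL4 were at 2.08 CPM or less in every library and did not pass, and PIWIL1 had 0 counts.

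**Figure D4:**
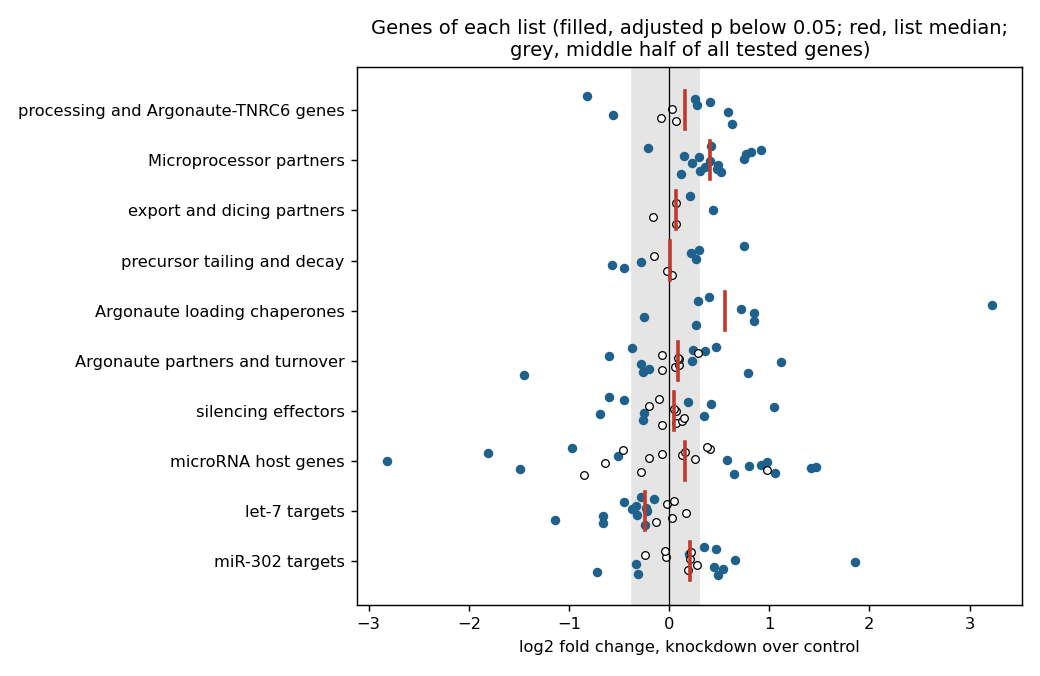
Log2 fold change (horizontal axis, knockdown over control) of every tested gene of each list, filled where the edgeR adjusted p is below 0.05, with the list median in red and the range between the quartiles of all tested genes in grey. Microprocessor partners and loading chaperones have medians of 0.41 and 0.56, and let-7 targets have a median of -0.24.

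Primary transcripts that carry a poly-A tail were read from host genes, here all genes with a symbol that begins with MIR and ends with HG. The table has 74, of which 25 were tested, 8 rose and 5 fell (32% and 20%, beside 26.1% and 25.6% of all tested genes), with a median of 0.16. Without knockdown replicate 1, 20 of them passed, 13 higher and 7 lower. With total counts only 7 were higher and 8 lower, and the median was 0.0058. By the rule for named genes MIR210HG (1.47), MIR205HG (1.41) and MIR17HG (1.06) had the largest rises and MIR325HG (-2.81), MIR503HG (-1.81) and MIR924HG (-0.97) the largest falls. Some of these levels were low. MIR210HG averaged 1.45 CPM in control and 4.05 CPM in knockdown, MIR205HG 1.12 and 2.99 CPM, and MIR325HG 1.84 and 0.25 CPM. The SE of the MIR325HG change was 0.45, and knockdown replicate 2 had 0.10 CPM of it.

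The host gene of the stem cell cluster, MIR302CHG, was the most abundant and is named for that. It had 123, 132 and 134 CPM in the control samples and 248, 272 and 244 CPM after knockdown. The groups were far apart, and the log2 fold change was 0.98 ± 0.05 (edgeR adjusted p = 1.3e-09). LARP7, a gene on the other strand whose span covers all of MIR302CHG, was chosen after its values were seen. It was lower, at -0.45 ± 0.07 (edgeR adjusted p = 9.1e-05). The overlap is of gene spans, and whether the 2 genes share exons was not examined. If strand was not used in counting, reads in any shared exon could belong to either gene. The part of such reads in the values was not tested. MIR17HG, host of the miR-17 to miR-92 cluster, had 7.51, 7.09 and 9.37 CPM in the control samples and 14.3, 18.5 and 17.2 CPM after knockdown. It did not overlap between groups, and its log2 fold change was 1.06 ± 0.14 (edgeR adjusted p = 1.0e-05). MIRLET7A1HG, host of 3 let-7 precursors, was at 4.47 ± 0.80 CPM in control and 5.81 ± 0.94 CPM in knockdown and did not pass (0.38 ± 0.19, edgeR adjusted p = 0.11). MIR100HG, whose precursors include one of let-7a, had the other direction. It was at 1.58 ± 0.40 CPM in control and 0.87 ± 0.41 CPM in knockdown and did not pass either (-0.85 ± 0.37, edgeR adjusted p = 0.066).

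The guide strands of MIR302CHG, MIR17HG and MIRLET7A1HG are shown to set their seeds side by side, with bases 2 to 8 in capitals (RefSeq, GRCh38.p14). From MIR302CHG on the minus strand of chromosome 4 come miR-302a at chr4:112648186-112648208 and miR-302b, miR-302c and miR-302d with the same seed, and miR-367 at chr4:112647877-112647898. From MIR17HG on the plus strand of chromosome 13 come miR-17 at chr13:91350618-91350640 and miR-20a with 1 seed, miR-18a with a seed of its own, miR-19a and miR-19b with another, and miR-92a, which shares its seed with miR-367. From MIRLET7A1HG on the plus strand of chromosome 9 come let-7a at chr9:94175962-94175983, let-7f at chr9:94176353-94176374 and let-7d at chr9:94178841-94178862, which share their seed.
hsa-miR-302a-3p: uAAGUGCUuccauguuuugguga
hsa-miR-302b-3p: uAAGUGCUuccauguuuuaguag
hsa-miR-302c-3p: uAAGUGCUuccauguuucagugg
hsa-miR-302d-3p: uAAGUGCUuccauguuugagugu
hsa-miR-17-5p: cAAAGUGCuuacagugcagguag
hsa-miR-20a-5p: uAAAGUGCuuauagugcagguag
hsa-miR-18a-5p: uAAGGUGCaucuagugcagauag
hsa-miR-19a-3p: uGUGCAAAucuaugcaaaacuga
hsa-miR-19b-3p: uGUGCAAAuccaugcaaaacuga
hsa-miR-367-3p: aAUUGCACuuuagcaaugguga
hsa-miR-92a-3p: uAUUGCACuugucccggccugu
hsa-let-7a-5p: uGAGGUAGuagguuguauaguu
hsa-let-7f-5p: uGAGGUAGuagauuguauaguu
hsa-let-7d-5p: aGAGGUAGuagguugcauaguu

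The precursor genes inside MIR302CHG had 10 to 85 counts a library where they had any, and MIR302A, MIR302C, MIR302D and MIR367 did not pass the test. Their log2 fold changes were, in that order, -0.36 ± 0.37, 0.51 ± 0.34, 0.01 ± 0.42 and 0.33 ± 0.21 (SE). How reads on both a precursor and its host were counted is unknown. Mature microRNAs were not measured, so a host level is not a level of its microRNAs.

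**Figure D5:**
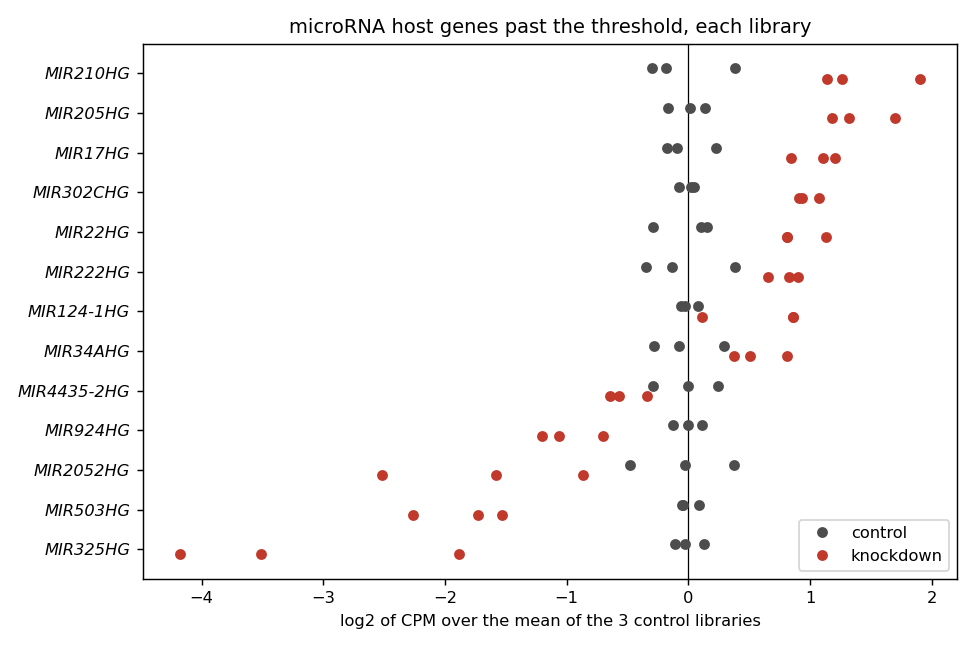
Level of each host gene past the threshold in each library (points), as log2 of its CPM over the mean of the 3 control libraries; grey is control and red is knockdown. In all 13 the knockdown points lie to 1 side of the control points, and those of MIR302CHG (log2 fold change 0.98) and MIR17HG (1.06) lie to the right.

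Known targets were listed for the let-7 and miR-302 families. Of 17 let-7 targets, a list that includes DICER1, 12 were lower and 0 higher, with a median of -0.24. These are 70.6% lower and 0% higher, beside 25.6% and 26.1% of all tested genes. CDK6, a G1 kinase, went from 98.2 ± 7.77 to 44.5 ± 4.07 CPM (log2 fold change -1.14 ± 0.08, edgeR adjusted p = 9.5e-09), and CCND2, a cyclin that pairs with it, and E2F2 each fell by 0.66. The 5 that did not pass, named after their values were seen, were HMGA2, MYCN, CDC25A, LIN28A and DICER1. With total counts only 15 were lower and 0 higher (median -0.39), and leaving out knockdown replicate 2 or 3 put 1 higher. Of 18 miR-302 targets 8 were higher and 3 lower (44.4% and 16.7%, beside 26.1% and 25.6% of all tested genes), with a median of 0.21. With total counts only 7 were higher and 4 lower, and the median was 0.05. LEFTY1, an inhibitor of NODAL, had a log2 fold change of 1.85 ± 0.21 from 1.83 CPM in control, LEFTY2 rose by 0.65 and DAZAP2 by 0.54. CCND1, a G1 cyclin, fell by 0.72 ± 0.17, the kinase LATS2 by 0.33 and BNIP3L by 0.31. CCND1 was at 181 CPM in knockdown replicate 1 and at 101 and 92.0 CPM in replicates 2 and 3, against 198 to 213 CPM in control.

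Seed sites were then counted within 3′ UTRs, with 1 coding transcript taken for each gene (GENCODE 29, GRCh38). A site was the reverse complement of bases 2 to 8 followed by A, on the transcript's strand. The 5 motifs were CTACCTCA for let-7, AGCACTTA for miR-302, GCACTTTA for miR-17, TTTGCACA for miR-19 and GTGCAATA for miR-92 and miR-367, and those of miR-302 and miR-17 share the letters GCACTT. Of the 10 genes, 7 held none of them, as did 82.1% of 14115 tested genes with a 3′ UTR. DICER1, listed above as a let-7 target, is among the 7. Shorter matches and matches outside these 3′ UTRs were not counted, so a gene with none here can still hold those. AGO3 held a let-7 and a miR-92 site, AGO2 a let-7 site and TNRC6B 1 site of miR-17 and 2 of miR-19. Those 3 genes and AGO1 have annotated 3′ UTRs of 10921 to 16755 bases, against a median of 1014 in all genes. Both sites of AGO3 and the 3 of TNRC6B are shown with their surroundings, the site in capitals. They lie on the plus strand, for AGO3 at chr1:36069077-36069106 (let-7) and chr1:36057513-36057542 (miR-92), and for TNRC6B at chr22:40335257-40335286 (miR-17), chr22:40334203-40334232 and chr22:40334880-40334909 (miR-19).
AGO3 let-7 site: cctgtcctcacCTACCTCActaaattgttg
AGO3 miR-92 site: gctatcttttaGTGCAATAagcagttttaa
TNRC6B miR-17 site: acagaaactagGCACTTTAgaggtgcactt
TNRC6B first miR-19 site: caccaccacccTTTGCACAcaccagtgacc
TNRC6B second miR-19 site: agctttccaacTTTGCACAcaaacaggtaa
A match is a description of letters, and whether these sites are used was not measured.

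Of the 14115 genes with a 3′ UTR 28.7% were higher and 27.2% lower, and of those with none of the 5 sites 29.2% were higher and 26.6% lower. The let-7 site was in 519 genes (3.68%), of which 26.8% were higher and 30.1% lower (median -0.04), and the miR-302 site was in 468 (3.32%), of which 24.1% were higher and 27.6% lower (median -0.02). The miR-17 site was in 673 (4.77%), of which 28.7% were higher and 26.9% lower (median -0.01). The miR-19 site was in 884 (6.26%), of which 25.5% were higher and 32.7% lower (median -0.07), and the miR-92 site was in 452 (3.20%), of which 24.8% were higher and 30.8% lower (median -0.06). Genes with a site have long 3′ UTRs, with medians of 2724 to 3346 bases. Over all 14115 genes, with and without sites, 3′ UTR length also went with the change. Among the 3528 genes with the shortest 3′ UTRs 30.9% were higher and 21.8% lower (median 0.05), and among the 3529 with the longest 24.7% were higher and 33.6% lower (median -0.07). The part of length in the values for the sites was not tested.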

How the data were processed

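Poly-A RNA of 3 control and 3 SAMD4A knockdown libraries was measured. The authors deposited raw counts per gene, whole numbers with no normalization, and HISAT2, HTSeq and the build GRCh38 appear in the submitters' processing notes, without versions, options or a strand setting; the kit was stranded, per the labels' protocols. The authors' table also holds an exon length per gene, in bases, used as an annotation and not as a measured score; 0 count columns were left unused. Groups come from the genotype label.

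Genes were filtered with filterByExpr and tested with edgeR 4.0.16 (R 4.3.3; TMM factors, quasi-likelihood test, two-sided, Benjamini-Hochberg over 17258 genes, threshold 0.05), with library totals of 19270688 to 21355171 counts and a biological coefficient of variation of 7.47%. SE is the fold change over the root of its F statistic. Shares and ratios used an exact permutation test over libraries. Alternatives were RLE and upper-quartile factors, total counts only, other low-count filters, DESeq2 1.42.0, limma-voom (limma 3.58.1), the replicate number as a block, an exon length offset, a fit without mitochondrial genes or the 10 genes of highest count, and each library left out.

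The 10 genes and all lists were chosen with earlier results of these data known. Named genes are the 10, SAMD4A, LIN28A, LIN28B, TARBP2, XPO5 and, per list, up to 3 called rises and 3 falls with a mean of at least 1 CPM; any other name, and the search for seed sites, came after the values were known.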

Additional observations from a re-analysis of the deposited data

How the results depend on the processing

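AGO1, DGCR8, TNRC6A, DROSHA, AGO4 and TNRC6C kept their direction and their call in all 16 alternatives, with log2 fold changes of 0.47 to 0.71, 0.43 to 0.64, 0.25 to 0.48, 0.12 to 0.32, -0.72 to -0.47 and -0.98 to -0.75. TNRC6B lost its call with total counts only, given above. DICER1 reversed with upper-quartile factors (-0.018), total counts only (-0.13), without control replicate 1 (-0.0008) and without knockdown replicate 1 (-0.0016; at most 0.058 with any library left out), AGO2 with total counts only (-0.093), and AGO3 with the exon length offset (0.0089); the cause was not tested.

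Total counts only gave 2704 genes higher and 6410 lower against 4503 and 4423, 4 of the 10 genes lower against 2, 8 host genes lower against 5, and a median of -0.0083 in place of 0.15 for the 75 partner genes. With no low-count filter the median of host genes was -0.22, where more genes of few counts enter. Leaving out each library gave 7409 to 9629 calls over all genes, 11 to 20 host genes called (7 to 13 higher), 0 to 1 let-7 targets higher and 7 of the 10 genes in every case. No low-count filter and the exon length offset each put 1 let-7 target higher. Without length scaling the share differences were -4.32 points for AGO2, -1.16 for AGO3 and -3.54 for AGO4.

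Replicate numbers did not pair the samples: the deviations of same-numbered libraries correlated at -0.02, -0.01 and -0.04, and 0 of 6 libraries correlated best with its own number. With the replicate block 8434 genes were called and the same number of the 10 genes, 7. The lowest count among the 10 genes in any library was 341, for AGO4, where counting error weighs most.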
